A study of Mus musculus with 9 samples.

Results

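Alternative exon ends are exons that 1 gene uses with more than 1 start or more than 1 end. All events of this class were taken from 9 libraries of the mouse epididymis. They made up 104658 of 840398 listed event rows (12.5%) and 15392 distinct exon forms, of 139067 distinct events of every type. Forms of the same locus and strand that overlapped were joined into 8167 exon-end groups in 5363 annotated genes. For each group and library, the share of a form is its FPKM, fragments scaled for length and library size, over the summed FPKM of the group, with an unlisted form counted as 0. A group was compared when it held at least 2 forms and summed to at least 1 FPKM in every library, which left 3826 groups in 2890 genes. Of the rest, 2715 groups had a single listed form and 1626 had a sum under 1 FPKM in some library. Just inside this limit lay a group of Mfsd10, with a lowest sum of 1.01 FPKM, and just outside it a group of Abcc10, with 0.999 FPKM.

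The libraries came from the initial segment, the most proximal stretch of the duct, of C57BL/6 mice at 4 weeks of age. There were 3 libraries of Mst1/2; Yap triple knockout (tKO), 3 of Mst1/2 double knockout (dKO) and 3 of wild type (WT), so tKO and dKO share the loss of Mst1 (Stk4) and Mst2 (Stk3), and tKO alone carries the deletion of Yap (Yap1). The design asks which transcripts depend on the Mst kinases of the Hippo pathway and which of those depend on Yap. The labels used here name neither the promoter behind the deletions nor the animals behind each library, so p-values measure only the spread between these libraries. Values in bulk tissue do not separate a form made in fewer cells from a form made at a lower level in each cell.

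An internal exon begins at an acceptor site, where the intron ends in AG, and ends at a donor site, where the next intron begins with GT. The spliceosome can pick between neighbouring acceptors or donors, so that a stretch of RNA is kept in one transcript and removed in the other. A stretch whose length is a multiple of 3 leaves the reading frame of the rest of the coding sequence as it was. Acceptors a few bases apart, above all the tandem NAGNAG kind, are a common form of this choice in mammals.

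Coding stretches from some of the groups discussed below are printed here 5′ to 3′ on the transcribed strand, from the GENCODE M21 transcripts of the build GRCm38. Capitals mark the bases that the longer form keeps and the shorter form lacks, and lower case marks the neighbouring exon bases that both forms keep. They are shown because the shares of these groups are described by library below. The first set holds acceptor choices.
Enpp1, chr10:24664584-24664627, minus strand: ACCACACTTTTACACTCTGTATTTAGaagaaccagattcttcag
Sf1, chr19:6374549-6374571, plus strand: ATCAGtacctgggaagtacgcct
Hcfc1r1, chr17:23674535-23674564, plus strand: TCTTTCCCCCAGggaacctttgcacaagca
Ptbp1, chr10:79858952-79859089, plus strand: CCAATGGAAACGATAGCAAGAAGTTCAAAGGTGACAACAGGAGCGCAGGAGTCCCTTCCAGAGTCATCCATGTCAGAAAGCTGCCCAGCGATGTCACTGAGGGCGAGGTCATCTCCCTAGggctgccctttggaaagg
Zer1, chr2:30110364-30110420, minus strand: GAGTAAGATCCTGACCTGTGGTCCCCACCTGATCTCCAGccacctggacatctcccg
Ewsr1, chr11:5078562-5078591, minus strand: GCCTTCCTATAGatcccgatgaagactctg
Etv4, chr11:101774210-101774245, minus strand: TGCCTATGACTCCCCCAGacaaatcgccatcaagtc
Hgs, chr11:120479087-120479107, plus strand: CAGtaccagaatggggagtcg
Chtop, chr3:90503262-90503282, minus strand: AAGagcttaaagcagcgcctg
Acsl4, chrX:142351598-142351618, minus strand: AAGaaaaacgctatggcaaag
The second set holds donor choices, with the shared exon bases before the capitals.
Nol4l, chr2:153420532-153420567, minus strand: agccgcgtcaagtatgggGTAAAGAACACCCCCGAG
Dcaf11, chr14:55561402-55561442, plus strand: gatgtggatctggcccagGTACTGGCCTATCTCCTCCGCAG
Cnot6, chr11:49685248-49685280, minus strand: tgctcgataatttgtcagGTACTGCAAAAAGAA
Ncor1, chr11:62378497-62378532, minus strand: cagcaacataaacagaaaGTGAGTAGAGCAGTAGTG
Each printed acceptor stretch ends in AG and each printed donor stretch begins with GT. Over the compared groups whose longer form is an annotated internal exon, AG ended 1607 of 1616 acceptor stretches (99.4%), against 6.50% of the other dinucleotides in these stretches. GT began 955 of 978 donor stretches (97.6%), against 5.37% of their other dinucleotides. Since acceptor and donor sites carry these bases, the values check where the stretches were cut and are not a result about the genotypes.

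The deleted genes were checked through other event types, since Stk4, Stk3 and Yap1 hold no exon-end group. The share of Stk4 transcripts that skip its targeted exon pair was 58.7%, 58.0% and 24.5% in the tKO libraries, 68.6%, 64.8% and 59.4% in dKO and 0% in each WT library. For Stk3 it was 40.8%, 36.8% and 42.2% in tKO, 59.6%, 60.9% and 48.5% in dKO and 0% in WT. Yap1, summed over its first exons, had 8.86, 8.68 and 8.33 FPKM in tKO, 26.4, 25.2 and 27.9 FPKM in dKO and 23.2, 25.2 and 26.9 FPKM in WT. Every tKO library lay below the others and none was at 0, so the loss of Yap1 transcript was partial in these libraries, as was the skipping in Stk4 and Stk3. The label of the tissue was checked against 10 genes of the initial segment and its principal cells. In every library 9 of the 10 reached 1 FPKM, while Ros1 was listed only in tKO replicate 3, at 20.5 FPKM. Together they had a summed level of 15557 to 19276 FPKM in tKO, 15075 to 16457 in dKO and 24384 to 25619 in WT. Most of this sum was Gpx5, with means of 12727 FPKM in tKO, 14005 in dKO and 16957 in WT. Rnase10, Lcn8, Cst8, Cst12, Etv4, Etv5 and Defb30 were lower in each dKO library than in each tKO library. Gpx5 and Adam28 overlapped between tKO and dKO. Lcn8, for example, had means of 2685 FPKM in tKO, 809 in dKO and 4514 in WT. Of 4 lymphocyte genes 3 were listed at 0 in every library, as were 3 of 4 germ cell genes. A 0 says only that no event of a gene was listed. Pecam1 and Pdgfra were at 0 in every library too, while Cdh5 and Dcn of the same endothelial and fibroblast lists reached 12.8 and 321 FPKM. Other marker lists also had unequal levels. Genes of later segments summed to 694 to 771 FPKM in tKO, 263 to 404 in dKO and 934 to 1144 in WT. Of these genes, Crisp1 was listed only in tKO replicates 2 and 3, at 47.0 and 75.2 FPKM. Whether the libraries hold tissue of later segments was not tested. Basal cell genes summed to 63.8 to 93.1 FPKM in tKO, 93.5 to 102 in dKO and 108 to 122 in WT. The members of this list did not move together. Krt5 and Krt14 had means of 25.4 and 14.9 FPKM in tKO, against 52.8 and 26.5 FPKM in WT. Trp63 overlapped between tKO and WT, at 20.2 to 24.1 and 20.6 to 24.8 FPKM. Itga6 overlapped too, at 10.3 to 18.6 FPKM in tKO and 9.21 to 13.4 in WT, with the higher mean in tKO. Genes of ciliated efferent duct cells summed to 23.6 to 66.2 FPKM in tKO, 17.0 to 28.1 in dKO and 17.5 to 20.7 in WT. Their part in the shares below was not tested.

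More exon forms were listed in tKO than in the other libraries. Forms numbered 10724, 11275 and 10820 in tKO, 10402, 10193 and 10311 in dKO, and 10522, 10124 and 10085 in WT. The tKO libraries lay above all others, and the exact two-sided permutation p was 0.1 against WT and 0.1 against dKO, the smallest that 3 against 3 libraries allow (0.188 after Benjamini-Hochberg adjustment over 15 such tests). Events of every type were likewise more numerous, at 95374 to 101601 rows in tKO, 90121 to 91982 in dKO and 89938 to 93512 in WT. The share of rows that were alternative exon ends was 12.3% to 12.5% in tKO, 12.5% in each dKO library and 12.4% to 12.5% in WT. Groups in which the leading form, the form with the highest mean share over the 9 libraries, took 100% of the sum numbered 1470 to 1510 in tKO, 1592 to 1624 in dKO and 1544 to 1695 in WT. The mean share outside the leading form still overlapped, at 11.9% to 12.5% in tKO, 11.8% to 12.2% in dKO and 11.7% to 12.0% in WT. Over the 9 libraries it was 8.46% to 9.05% where only the acceptor varied and 8.93% to 10.2% where only the donor did. The sequencing depth of the libraries is unknown, since the files hold no read counts, and its part in these counts was not tested.

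Acceptor choice was the most frequent kind. Of the 3826 compared groups, the 2 main forms differed at the acceptor in 2127 (55.6%), at the donor in 1393 (36.4%) and at both ends in 306 (8.00%). Nearly all of the last kind, 293 of 306, held forms with no base in common, that is, neighbouring exons joined by a form that spans the intron between them. Both main forms were annotated exons in 2518 groups (65.8%). The varied stretch had a median of 55 bases for acceptors and 74 bases for donors, and the most common length was 18 bases for acceptors and 12 for donors. Within coding sequence, 525 of 1033 acceptor stretches (50.8%) and 323 of 658 donor stretches (49.1%) were a multiple of 3 bases long. Outside annotated exons this held for 96 of 292 acceptor stretches (32.9%) and 71 of 194 donor stretches (36.6%).

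One form usually dominated. The leading form had a median share of 96.1%, was over 95% in 2109 groups (55.1%) and was under 60% in 438 groups. Only 1228 groups had both main forms listed in all 9 libraries, and in 505 groups the leading share lay between 10% and 90% in every library. These counts include the 322 groups that hold forms with no base in common. Neighbouring exons can lie in the same transcript, so a lower leading share there need not be a choice between ends. Their part in the counts was not tested. The longer form led in 953 of 2127 acceptor groups (44.8%) and in 560 of 1393 donor groups (40.2%). Of the 15392 forms, 7713 (50.1%) were listed in all 9 libraries and 2834 (18.4%) in a single library.

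**Figure D1:**
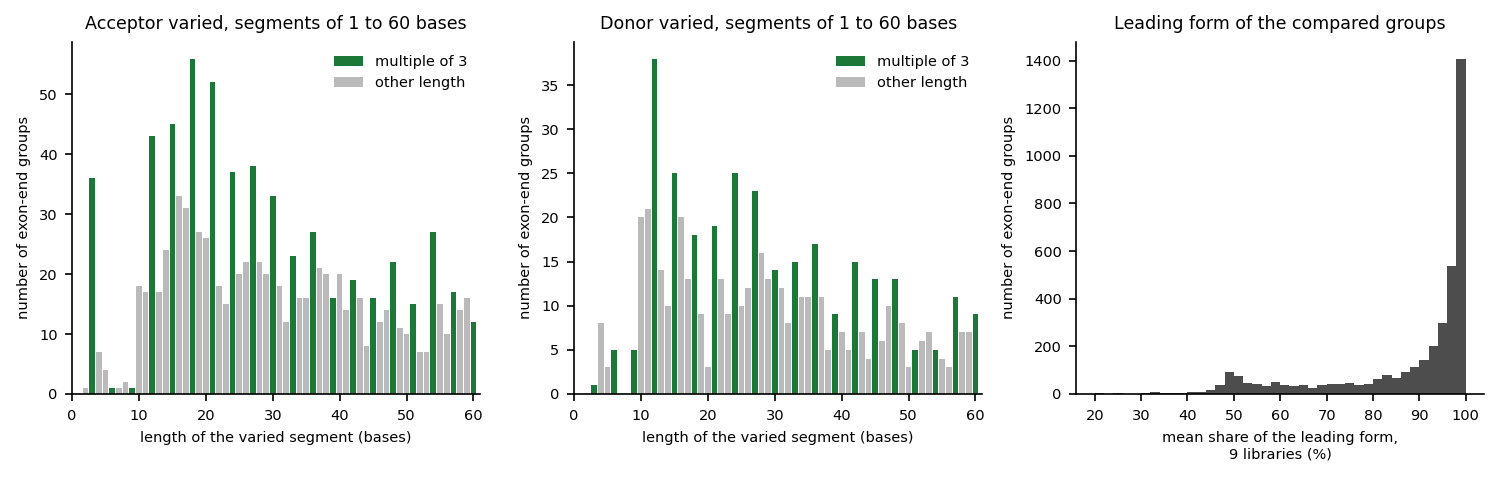
Numbers of exon-end groups by the length of the varied stretch in bases, for acceptors (left) and donors (middle), and by the mean share of the leading form over 9 libraries in percent (right). Most bars for multiples of 3 stand above their neighbours, acceptors have 36 groups at 3 bases where donors have 1, and the median leading share is 96.1%.

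The spread between libraries of a group set what could be seen. The SD of the leading share within a group of libraries had a median of 4.93 percentage points over the compared groups, with quartiles of 1.86 and 10.4 points. It was smaller at higher levels, with a median of 7.39 points in groups with a mean sum under 5 FPKM, 4.67 points from 5 to 20 FPKM and 2.94 points from 20 FPKM. Where the leading form had 90% or less, the median SD was 12.1 points. Across groups, which are not independent replicates, leading shares of libraries correlated at 0.667 to 0.712 within tKO, dKO or WT and at 0.651 to 0.704 between them, as a description of libraries that share one event catalogue.

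Acceptors 3 bases apart were found in 36 compared groups, 26 of them in coding sequence, against 1 donor group of that size. Their leading form had a median share of 80.0%, against 97.0% for all acceptor groups. In 8 of the 36 it lay between 10% and 90% in every library, beside 505 of the 3826 compared groups. The SD of their leading share within a genotype had a median of 12.7 points, against 4.93 over all compared groups. In coding sequence such a choice adds or removes 1 amino acid or changes residues at the junction. Of 33 stretches that could be read from annotated exons 25 were CAG, 5 AAG, 2 TAG and 1 GAG. Among the 1574 longer acceptor stretches that end in AG, 72.5% ended in CAG, 17.4% in TAG, 9.34% in AAG and 0.762% in GAG. The shares of 3 genes, picked after their values were seen, follow by library.

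Hgs, which encodes the ESCRT-0 subunit that sorts ubiquitinated receptors on endosomes, kept its CAG in 52.9%, 53.4% and 59.8% of the group sum in tKO, 42.2%, 52.1% and 58.7% in dKO and 60.5%, 55.0% and 47.8% in WT. Chtop, an mRNA export adaptor, kept its AAG in 65.6%, 49.9% and 42.1% in tKO, 44.7%, 46.7% and 46.3% in dKO and 42.2%, 44.3% and 62.1% in WT. For Acsl4, which activates arachidonic acid, the share with the extra AAG was 72.9%, 65.9% and 66.6% in tKO, 61.4%, 75.7% and 70.3% in dKO and 60.3%, 79.2% and 73.2% in WT. All 3 genes had the libraries of the groups mixed. Hspbp1, a nucleotide exchange factor for Hsp70, stood among the largest differences of tKO against dKO by the naming rule, with a shorter form at 66.3%, 47.7% and 80.9% in tKO, 36.5%, 46.3% and 8.09% in dKO and 48.6%, 42.7% and 30.1% in WT (limma, adjusted p = 0.817 for tKO versus dKO). Of the 36 groups, the libraries did not overlap in 4 for tKO versus WT, 3 for dKO versus WT and 2 for tKO versus dKO, beside 6.66%, 6.04% and 6.69% of all compared groups. None of the 36 passed the limma test in any comparison, and at an unadjusted p under 0.05 there were 0, 1 and 2.

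**Figure D2:**
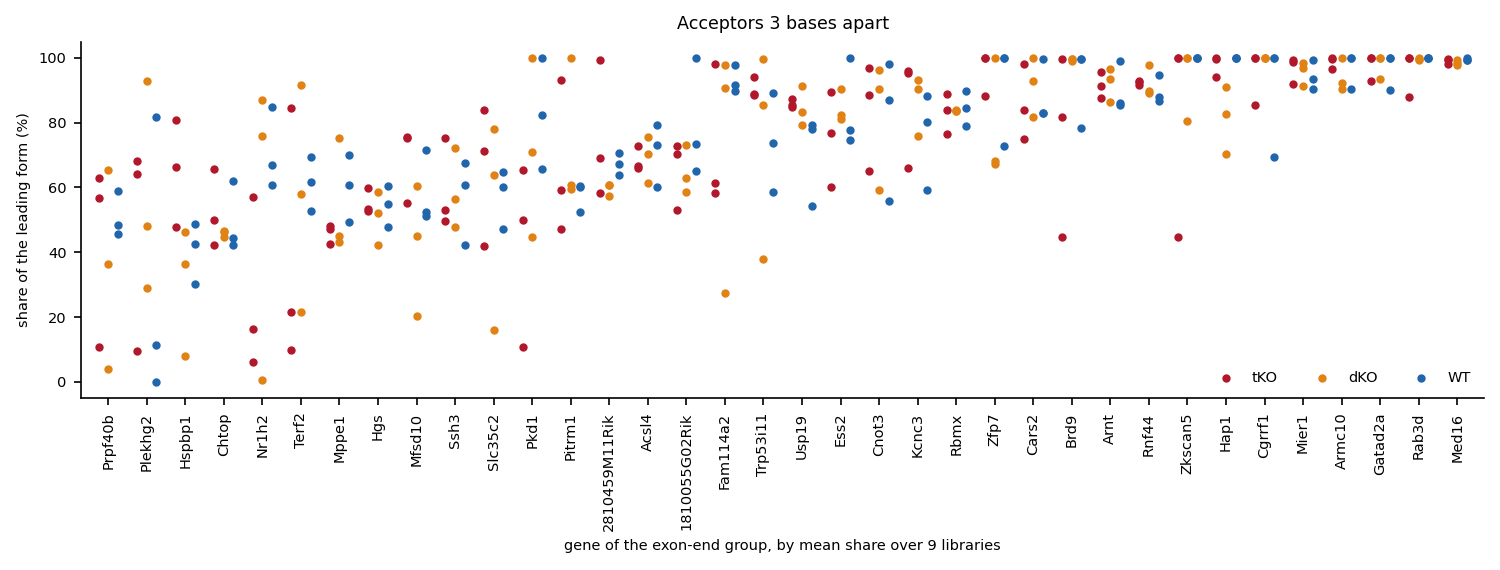
Share of the leading form in percent in each library (tKO, dKO, WT from left to right within a gene) for the 36 groups whose acceptors lie 3 bases apart, ordered by mean share. The colours mix within most genes, and the shares of Hgs, Acsl4 and Rbmx lie close together while those of Plekhg2 and Terf2 spread widely.

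The shares of exon ends were then compared between the genotypes. Few groups passed the test. In tKO versus WT 4 of 3826 groups were called at a Benjamini-Hochberg adjusted p under 0.05 by limma (0.105%), 1 with a higher (0.0261%) and 3 with a lower (0.0784%) leading share in tKO. In dKO versus WT 1 group was called (0.0261%), lower in dKO, and 0 were higher (0%). In tKO versus dKO 4 groups were called (0.105%), 1 higher (0.0261%) and 3 lower (0.0784%) in tKO. At an unadjusted p under 0.05 there were 149 groups (3.89%) for tKO versus WT, 140 (3.66%) for dKO versus WT and 158 (4.13%) for tKO versus dKO. The 3 libraries of one genotype lay wholly above the 3 of the other in 255 (6.66%), 231 (6.04%) and 256 (6.69%) groups in the same order of comparisons. The median absolute difference was 2.75 percentage points for tKO versus WT, 2.56 for dKO versus WT and 2.62 for tKO versus dKO, against a median SE of 3.84 points. By kind of end, 3 of the 4 calls of tKO versus WT were acceptor groups and 1 differed at both ends. The call of dKO versus WT and all 4 calls of tKO versus dKO were acceptor groups, and no donor group was called by limma in any of the 3 comparisons, with 57, 52 and 62 donor groups at an unadjusted p under 0.05.

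The counts were small and moved when a library was left out. For tKO versus WT 15, 7 and 15 groups were called without WT replicates 1, 2 and 3, and 13, 18 and 13 without tKO replicates 1, 2 and 3. For dKO versus WT there were 8, 4 and 12 with WT replicate 1, 2 or 3 left out, and 5, 6 and 12 with dKO replicate 1, 2 or 3 left out. Leaving out tKO replicate 1 or 3 gave 3 and 4. For tKO versus dKO there were 10, 7 and 17 without dKO replicates 1, 2 and 3, and 13, 18 and 14 without tKO replicates 1, 2 and 3.

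**Figure D3:**
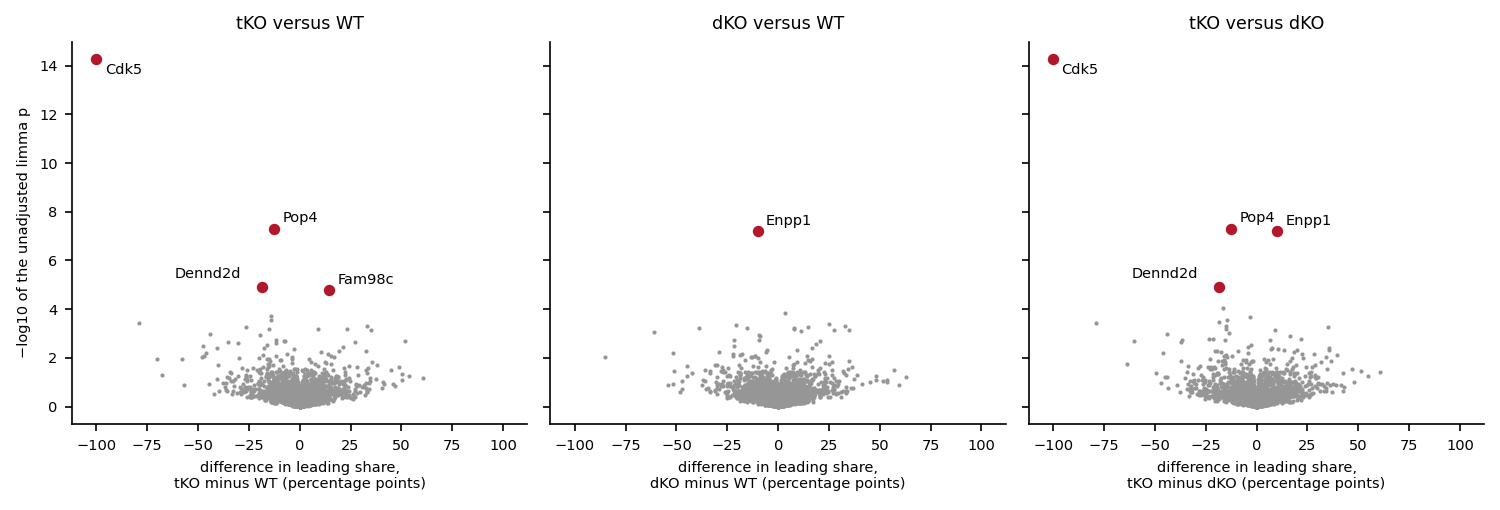
Difference in leading share in percentage points (x axis) against the negative log10 of the unadjusted limma p (y axis), 1 point per compared group, for tKO versus WT, dKO versus WT and tKO versus dKO. The red points are the called groups, 4, 1 and 4 of 3826, and Cdk5 stands alone at a difference of -100 points.

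In Pop4 and Dennd2d, longer or neighbouring forms were listed in tKO alone. Pop4 (ENSMUSG00000030423, chromosome 7, minus strand) encodes a protein subunit of RNase P and RNase MRP, which trim tRNA and rRNA precursors. Its leading form, an annotated exon of 227 bases at 38267369 to 38267595, made up 88.2%, 87.6% and 86.8% of the group in tKO and 100% in each dKO and WT library. Its share fell by 12.5 points (SE 0.463) in tKO against WT (limma, adjusted p = 9.36e-05) and by as much against dKO (adjusted p = 7.8e-05). In tKO the rest was an unannotated form of 1291 bases, at 0.630 and 0.536 FPKM in replicates 1 and 2 and unlisted in replicate 3, and the neighbouring exon of 189 bases, at 0.136 and 0.729 FPKM in replicates 2 and 3. The sum was 5.43 FPKM on average in tKO, 6.32 in dKO and 5.32 in WT, so these other forms were under 1 FPKM each. On the log2 ratio of the forms with a pseudocount of 1 FPKM, both calls were lost (adjusted p = 0.222 and 0.0877).

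Dennd2d (ENSMUSG00000027901, chromosome 3, plus strand), a DENN-domain protein of Rab GTPase regulation, had its leading exon of 178 bases at 82.7%, 84.2% and 77.5% in tKO and at 100% in each dKO and WT library. The share fell by 18.5 points (SE 1.60) in tKO against WT (limma, adjusted p = 0.0153) and by as much against dKO (adjusted p = 0.0115). The other form, unannotated and 1795 bases long, had 0.614, 0.401 and 0.755 FPKM in tKO and was unlisted elsewhere. The group is below the level of 5 FPKM used for naming, at a mean sum of 3.14 FPKM in tKO, 2.19 in dKO and 2.68 in WT. The tKO versus WT call was lost without WT replicate 2 (adjusted p = 0.0512) and without dKO replicate 2 (0.0541). The tKO versus dKO call was lost without WT replicate 2 (0.0561), WT replicate 3 (0.0560) or dKO replicate 2 (0.0509). Both were lost on the log2 ratio of the forms with a pseudocount of 1 FPKM (0.303 against WT and 0.527 against dKO). In Pop4 and Dennd2d the SD was 0 in dKO and in WT, since a single form was listed there.

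Cdk5 (ENSMUSG00000028969, chromosome 5, minus strand), a cyclin-dependent kinase best known from neurons, changed its listed form altogether. A form of 60 bases made up 100% in each dKO and WT library, at 5.01, 2.04 and 3.43 FPKM in dKO and 4.84, 6.46 and 3.27 FPKM in WT, and was unlisted in tKO. In its place, tKO replicate 1 had a form of 62 bases at 1.63 FPKM, replicate 2 the same form at 1.82 FPKM with one of 345 bases at 1.33 FPKM, and replicate 3 a form of 357 bases at 3.26 FPKM. All 4 forms share 1 donor, and none of their acceptors is annotated. The difference was -100 points (SE 0.333) in tKO versus WT and in tKO versus dKO (limma, adjusted p = 2.07e-11 in both). The share of the 60-base form did not vary within any genotype, so this SE and p do not measure a spread between libraries. The 60-base and the 62-base form differ by 2 bases, and the 3 tKO libraries did not agree on 1 replacement.

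Fam98c (ENSMUSG00000030590, chromosome 7, minus strand) was called with a higher leading share in tKO versus WT. Its group holds 2 neighbouring annotated exons of 168 and 117 bases and an annotated form of 1214 bases that spans both and the intron between them. The 168-base exon made up 50.6%, 50.6% and 50.7% in tKO, 46.1%, 40.9% and 45.2% in dKO and 35.5%, 36.5% and 36.5% in WT. The spanning form made up 0.0157%, 0.0399% and 0.0189% in tKO, 9.49%, 18.1% and 11.9% in dKO and 36.8%, 27.1% and 27.0% in WT. The 3 genotypes did not overlap, with tKO highest in the spliced exon and WT highest in the spanning form. The difference in the leading share was 14.5 points (SE 1.31) for tKO versus WT (limma, adjusted p = 0.0153), 7.95 points for dKO versus WT (adjusted p = 0.227) and 6.52 points for tKO versus dKO (adjusted p = 0.324). The 117-base exon, counted in the same group, made up 49.4%, 49.4% and 49.3% in tKO, 44.4%, 40.9% and 42.8% in dKO and 27.7%, 36.5% and 36.5% in WT. The call was lost without WT replicate 2 (adjusted p = 0.0532) and on the scale of log2 ratios of the forms (0.871 with a pseudocount of 0.1 FPKM and 0.303 with 1 FPKM).

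The single call of dKO versus WT was in Enpp1 (ENSMUSG00000037370, chromosome 10, minus strand), the ectoenzyme that makes pyrophosphate from extracellular ATP. The stretch of 26 coding bases printed above, not a multiple of 3, separates 2 annotated acceptors. The longer exon of 73 bases made up 89.6%, 89.8% and 90.4% in dKO and 100% in each tKO and WT library. The shorter exon of 47 bases had 1.73, 1.79 and 1.19 FPKM in dKO and was unlisted in tKO and WT. The longer exon had 18.3, 6.57 and 5.91 FPKM in tKO, 14.9, 15.8 and 11.2 FPKM in dKO and 12.2, 7.24 and 9.44 FPKM in WT. Its share fell by 10.1 points (SE 0.387) in dKO versus WT (limma, adjusted p = 2.34e-04), and was 10.1 points higher in tKO versus dKO (adjusted p = 7.8e-05). In tKO versus WT the difference was 0, and the share did not vary within tKO or within WT. On the log2 ratio of the forms the calls were lost, with adjusted p = 0.107 for dKO versus WT and 0.0575 for tKO versus dKO at a pseudocount of 0.1 FPKM.

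**Figure D4:**
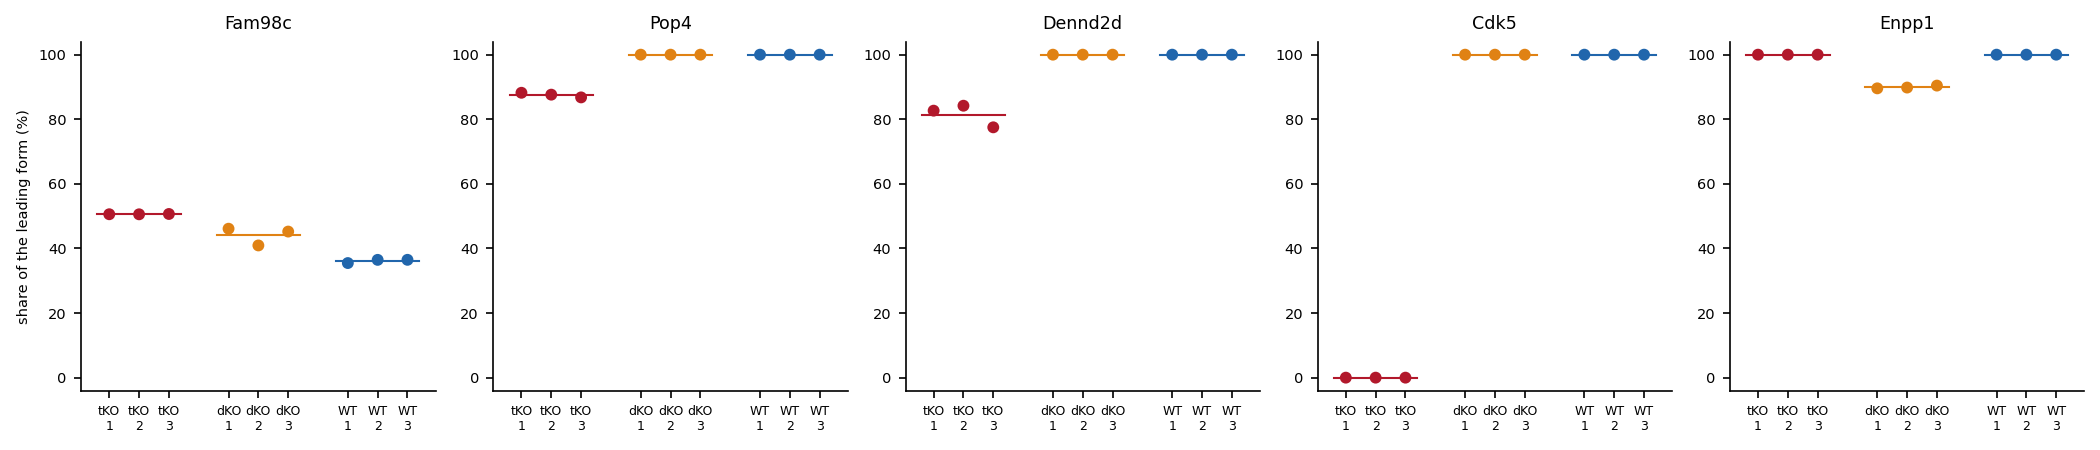
Share of the leading form in percent in each library for the 5 groups called in any comparison, with a line at each mean of 3 libraries. In Pop4, Dennd2d and Cdk5 the tKO libraries lie below 100% while all dKO and WT libraries lie at 100%, in Enpp1 the dKO libraries do so, and in Fam98c the shares step down across tKO, dKO and WT.

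Forms listed in all libraries of 1 genotype and in no other library were rare. Of 8981 forms in compared groups, 12 were listed in the 3 tKO libraries only, 4 in the 3 dKO libraries only and 2 in the 3 WT libraries only. Only 2 of the tKO forms reached 1 FPKM in each library. One lay in Trip6, which encodes a LIM-domain adaptor of focal adhesions, at 1.76, 1.11 and 1.65 FPKM. The other lay in Rps27a. Only 2 of the dKO forms reached that level, the Enpp1 exon above and a form of Tmem39a at 2.10, 2.44 and 4.18 FPKM. None of the 2 WT forms did. These genes were picked by their level after the values were seen. Forms unlisted in the 3 libraries of 1 genotype and listed in the other 6 numbered 2 for tKO, 8 for dKO and 5 for WT. More forms of every kind were listed in tKO, as given above, and the part of this in these counts was not tested.

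Beyond the calls, the naming rule took the largest differences with separated libraries, none of which passed. For tKO versus WT these were 9 groups higher by 27.0 to 51.8 points and 9 lower, at -79.2 to -32.6 points, with limma adjusted p of 0.203 or more. For dKO versus WT they were 10 groups higher by 20.4 to 51.7 points and 9 lower, at -85.3 to -31.1 points, with adjusted p of 0.227 or more. For tKO versus dKO they were 9 groups higher by 27.5 to 54.8 points and 9 lower, at -79.2 to -22.9 points, with adjusted p of 0.158 or more. Part of them are described by library. Of 1573 alternative values of groups that did not pass, 16 passed, and those printed below were picked after the values were seen.

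Rps27a (ENSMUSG00000020460, chromosome 11, minus strand), the fusion of ubiquitin with a small-subunit ribosomal protein, had the largest difference of tKO versus WT among the named groups with a mean sum of at least 5 FPKM. An annotated exon of 86 bases had 18.7, 18.0 and 5.16 FPKM in tKO and was unlisted in the other 6 libraries. The longer form of 558 bases, which begins 472 bases upstream and shares its donor, had 19.9, 0.645 and 0.419 FPKM in tKO, 26.7, 30.3 and 26.1 FPKM in dKO and 23.9, 24.6 and 28.0 FPKM in WT. Its share was 51.6%, 3.46% and 7.51% in tKO and 100% in each dKO and WT library. The difference was -79.2 points (SE 12.0) from WT (limma, adjusted p = 0.203) and from dKO (adjusted p = 0.158), so it did not pass. Replicate 1 lay apart within tKO. Without it, a choice made after the values were seen, the difference was -94.5 points and both comparisons passed (adjusted p = 1.37e-06 in each). Ribosomal protein genes have processed copies elsewhere in the genome. Whether reads of such copies enter this value was not tested, and it is given as uncertain.

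Other large differences of tKO versus WT did not pass either. Hcfc1r1, which binds the transcriptional regulator HCF-1, used the acceptor that leaves out its 12-base stretch in 75.0%, 2.50% and 1.04% in tKO, 72.9%, 100% and 96.1% in dKO and 100%, 96.0% and 93.0% in WT. All tKO libraries lay below WT, but replicate 1 lay near the lowest dKO library, and the difference of -70.2 points had an SE of 20.1 (limma, adjusted p = 0.826). It passed without tKO replicate 1, a choice made after the values were seen, at -94.6 points (adjusted p = 0.0148). Zer1, a substrate receptor of a Cul2 ubiquitin ligase, left out its 39-base stretch in 90.3%, 25.5% and 86.4% in tKO and in 100% in each dKO and WT library (adjusted p = 0.826). Without tKO replicate 2, also picked after the values were seen, this smaller difference of -11.7 points passed (adjusted p = 0.0176). Ewsr1, an RNA-binding protein of the FET family, kept its 12-base stretch in 34.7%, 47.9% and 57.1% in tKO, 100%, 52.6% and 33.8% in dKO and 90.6%, 68.9% and 81.1% in WT. The tKO libraries lay below the WT libraries while the dKO libraries spanned both (adjusted p = 0.826 for tKO versus WT).

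Dcaf11, a substrate receptor of Cul4 ubiquitin ligases, was a named donor group with a higher share in tKO. The shorter form of 345 bases made up 93.2%, 99.3% and 99.0% in tKO, 54.3%, 58.0% and 74.3% in dKO and 70.7%, 75.7% and 64.0% in WT. The form that keeps the 23-base stretch had 1.98, 0.0334 and 0.122 FPKM in tKO, 13.0, 15.0 and 7.25 FPKM in dKO and 10.8, 8.99 and 13.9 FPKM in WT. The tKO libraries lay above all others, by 27.0 points (SE 5.65) versus WT (limma, adjusted p = 0.403) and by 34.9 points versus dKO (adjusted p = 0.194). The difference from dKO passed without dKO replicate 3, picked after the values were seen (adjusted p = 0.0157). Vezf1, a zinc-finger factor of endothelial development, had an unannotated leading form at 97.5%, 84.0% and 94.0% in tKO, 71.3%, 46.4% and 38.8% in dKO and 48.4%, 23.2% and 48.4% in WT (adjusted p = 0.397 for tKO versus WT). This form of 684 bases spans neighbouring forms of 187 and 119 bases that have no base in common. None of their ends is annotated, and the share of Vezf1 need not be a choice between ends.

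The largest difference of dKO versus WT among the named groups was in Ptbp1, the polypyrimidine tract-binding protein that represses many exons. The form that keeps the 120-base stretch made up 16.0%, 100% and 100% in tKO, 34.0%, 0.107% and 0.125% in dKO and 98.2%, 100% and 91.9% in WT. The shorter form had 46.1, 0 and 0 FPKM in tKO, 30.7, 54.5 and 61.3 FPKM in dKO and 0.872, 0 and 3.69 FPKM in WT. All dKO libraries lay below WT, and tKO replicate 1 lay with dKO while the other two lay with WT. The difference of -85.3 points had an SE of 23.5 (limma, adjusted p = 0.874) and did not pass.

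Nol4l and Myo18a had lower leading shares in both knockouts than in WT. Nol4l (ENSMUSG00000061411, chromosome 2, minus strand) kept its 18-base donor stretch in 71.6%, 56.4% and 56.6% in tKO, 62.8%, 49.9% and 46.5% in dKO and 100%, 88.9% and 86.4% in WT. Every tKO and dKO library lay below every WT library. The difference was -30.2 points (SE 6.37) for tKO versus WT (limma, adjusted p = 0.403) and -38.7 points for dKO versus WT (adjusted p = 0.227). The shorter form had 1.85, 3.75 and 2.51 FPKM in tKO, 2.88, 3.60 and 4.21 FPKM in dKO and 0, 0.654 and 0.904 FPKM in WT. In Myo18a, an unconventional myosin, the annotated exon of 145 bases made up 52.9%, 44.2% and 21.7% in tKO, 36.4%, 27.4% and 15.6% in dKO and 90.0%, 100% and 71.9% in WT (adjusted p = 0.509 for tKO versus WT and 0.244 for dKO versus WT). The other main form, unannotated and 1633 bases long, reads past this donor. An unannotated form of 1145 bases, with no base in common with the 145-base exon, made up 31.9% and 27.4% in dKO replicates 1 and 2. It was unlisted in all other libraries, so the low shares of those dKO libraries need not be donor choice alone. The tKO and dKO comparisons share the WT libraries, so their directions are not independent.

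Among the other named donor groups, Cnot6, a deadenylase subunit of CCR4-NOT, left out its 15-base stretch in 55.5%, 70.7% and 48.7% in tKO, 72.0%, 84.6% and 87.5% in dKO and 59.6%, 50.5% and 59.6% in WT. All dKO libraries lay above the others (limma, adjusted p = 0.874 for dKO versus WT and 0.808 for tKO versus dKO). Ncor1, the nuclear receptor corepressor, left out its 18-base stretch in 94.4%, 64.8% and 68.1% in tKO, 68.6%, 49.8% and 23.1% in dKO and 76.6%, 83.5% and 82.6% in WT. Here dKO lay below WT while tKO overlapped both.

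Signalling and adhesion genes gave further differences of this kind. Arrb2, the beta-arrestin 2 that desensitises G protein-coupled receptors, kept a 33-base acceptor stretch in 26.9%, 38.0% and 23.7% in tKO, 71.4%, 32.1% and 65.2% in dKO and 65.5%, 67.2% and 97.5% in WT. All tKO libraries lay below WT, while dKO replicate 2 lay with tKO (limma, adjusted p = 0.826 for tKO versus WT). Map2k2, the MEK2 kinase that activates ERK, used the shorter of 2 annotated exons in 100%, 76.9% and 100% in tKO, 100%, 84.2% and 100% in dKO and 68.1%, 76.5% and 59.9% in WT. All tKO and dKO libraries lay above WT, by 26.6 points in dKO (adjusted p = 0.874 for dKO versus WT and 0.826 for tKO versus WT). Fgfrl1, an FGF receptor without a kinase domain, used the longer of 2 acceptors in the UTR in 85.1%, 99.1% and 98.7% in tKO, 98.8%, 100% and 98.5% in dKO and 75.4%, 84.1% and 76.6% in WT. Here too WT was lowest, and the adjusted p was 0.416 for dKO versus WT and 0.826 for tKO versus WT by limma. Magi1, a scaffold of tight junctions, left out a 36-base stretch in 66.4%, 56.4% and 76.6% in tKO, 42.3%, 19.3% and 27.7% in dKO and 41.4%, 27.6% and 65.3% in WT. The tKO libraries lay above dKO and overlapped WT (adjusted p = 0.817 for tKO versus dKO).

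Other named groups lay in genes of transcription and RNA binding. Med8, a Mediator subunit, kept a 40-base stretch in 55.7%, 46.1% and 61.2% in tKO, 85.5%, 92.2% and 96.2% in dKO and 54.1%, 91.9% and 95.9% in WT. All tKO libraries lay below dKO, and WT replicate 1 lay with tKO (limma, adjusted p = 0.817 for tKO versus dKO). Chd3, a remodeller of the NuRD complex, left out an 18-base stretch in 35.8%, 63.1% and 72.4% in tKO, 97.8%, 83.5% and 65.8% in dKO and 37.3%, 57.0% and 56.8% in WT. The dKO libraries lay above WT and overlapped tKO (adjusted p = 0.874 for dKO versus WT). Gigyf2, which represses translation together with a cap-binding protein, kept an 18-base stretch in 98.8%, 89.4% and 94.9% in tKO, 70.8%, 33.1% and 91.5% in dKO and 99.5%, 97.6% and 98.4% in WT. The dKO libraries lay below WT and replicate 2 lay lowest (adjusted p = 0.874). Mef2a, a MADS-box transcription factor, switched between exons 20 bases apart in its UTR. The shorter exon made up 100%, 47.7% and 100% in tKO, 25.5%, 21.3% and 36.7% in dKO and 24.7%, 100% and 100% in WT. The tKO libraries lay above dKO, while WT held 1 library at the dKO level and 2 at 100% (adjusted p = 0.817 for tKO versus dKO).

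Several groups stood at or near 100% in at least 1 genotype and lower in another. Ubl5, a ubiquitin-like protein of the spliceosome, used its shorter form in 63.4%, 69.6% and 97.4% in tKO, 100%, 99.3% and 99.7% in dKO and 100%, 99.9% and 99.9% in WT (limma, adjusted p = 0.817 for tKO versus dKO, and 1.09e-03 without tKO replicate 3, picked after the values were seen). Ano10, of the anoctamin family, used its longer form in 73.3%, 51.3% and 93.0% in dKO and in 100% in each tKO and WT library (adjusted p = 0.817 for tKO versus dKO), and its group sum was 12.8 FPKM in tKO, 5.06 in dKO and 15.0 in WT. Tmem161a rounded to 100% in all but 2 libraries, dKO replicates 1 and 2, at 99.9% and 6.78%, so that its difference rests on replicate 2. Tmem39a had its 188-base exon at 100%, 50.0% and 50.0% in tKO, 46.4%, 45.8% and 43.1% in dKO and 100%, 100% and 91.1% in WT (adjusted p = 0.871 for dKO versus WT, 4.01e-03 without tKO replicate 1). For Tmem39a the library left out was picked after the values were seen. It is not part of this comparison and enters it only through the SE of the shared model. In that group the neighbouring exon of 121 bases was listed at 12.5 and 15.1 FPKM in tKO replicates 2 and 3 and at 13.6, 13.4 and 13.0 FPKM in dKO, and was unlisted in tKO replicate 1 and in WT. The share thus moved with the listing of the neighbour, while the level of the 188-base exon, 11.2 to 15.1 FPKM in tKO, 13.0 to 13.6 in dKO and 11.8 to 14.8 in WT, overlapped between tKO and WT.

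**Figure D5:**
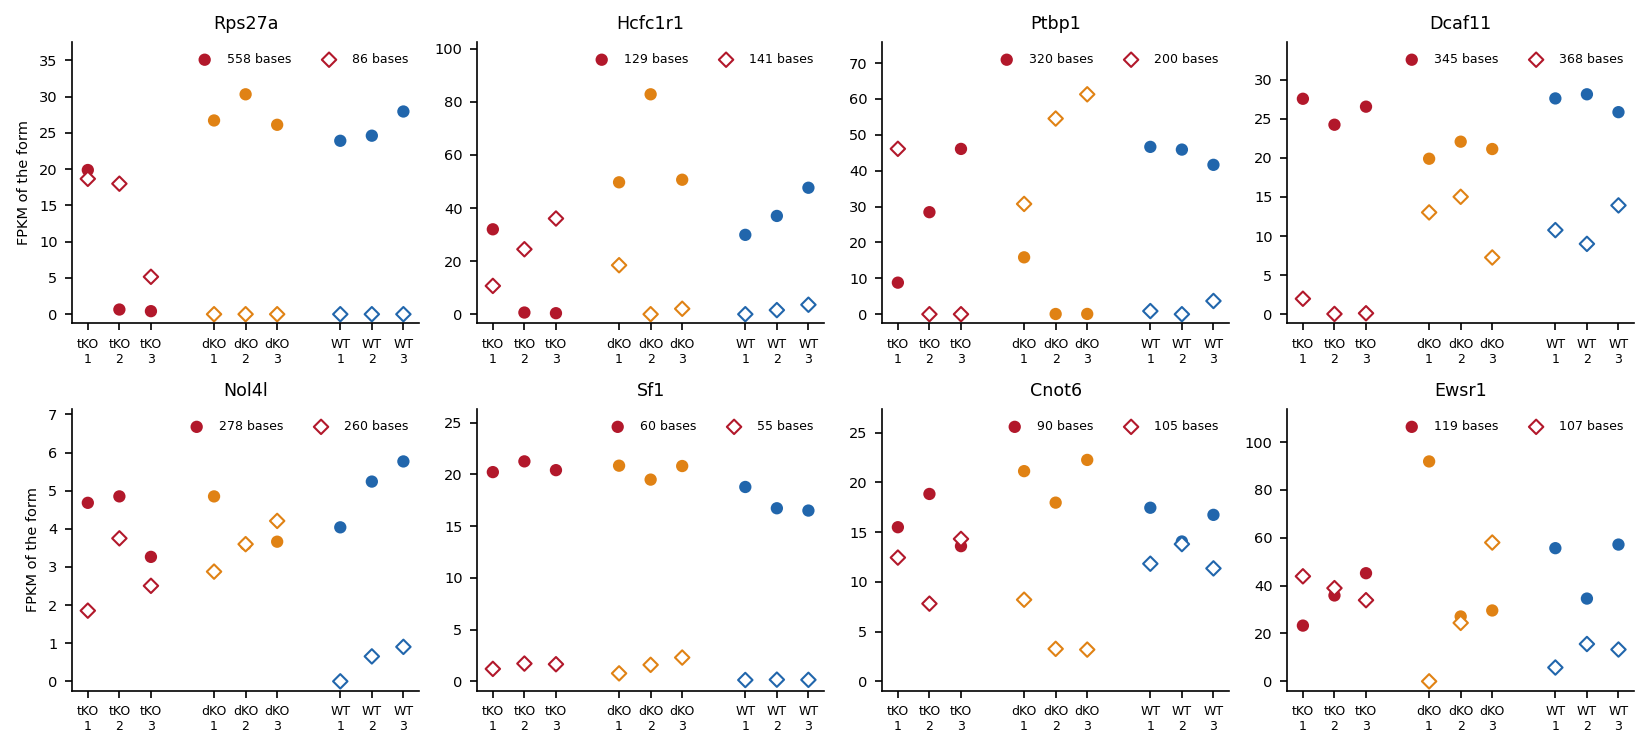
FPKM of the leading form (filled circles) and the second form (open diamonds) in each library, tKO to the left, dKO in the middle and WT to the right, for 8 groups, with the length of each form in bases in the legend. In Rps27a, Hcfc1r1 and Ptbp1 the forms trade places between libraries of 1 genotype, and in Dcaf11, Nol4l and Sf1 the second form separates genotypes at a lower level.

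The splicing regulators, chosen as a list with earlier results of these data known, had 61 compared groups in 40 genes, with no call in any comparison. At an unadjusted p under 0.05 there were 2 groups in tKO versus WT, 5 in dKO versus WT and 1 in tKO versus dKO, beside 3.89%, 3.66% and 4.13% of all compared groups. The libraries did not overlap in 5, 7 and 0 of the 61, beside 6.66%, 6.04% and 6.69% of all compared groups. Their median absolute differences were 2.86, 2.63 and 2.56 points, against 2.75, 2.56 and 2.62 over all compared groups. Sf1, which recognises the branch point of introns, had the most even pattern. The longer exon of 60 bases, which keeps 5 bases and so is in another frame than the shorter one, made up 94.4%, 92.5% and 92.5% in tKO, 96.4%, 92.4% and 90.1% in dKO and 99.3%, 99.0% and 99.1% in WT. The shorter exon had 1.20, 1.71 and 1.65 FPKM in tKO, 0.770, 1.59 and 2.30 FPKM in dKO and 0.128, 0.162 and 0.144 FPKM in WT. Every tKO and dKO library lay above every WT library in this shorter form. The difference in leading share was -6.02 points (SE 1.56) for tKO versus WT, with a limma adjusted p of 0.768. For dKO versus WT it was -6.19 points (adjusted p = 0.871). In a second group of Sf1, an unannotated form of 3056 bases was listed in tKO replicate 3 at 1.27 FPKM and in WT at 1.20, 1.17 and 1.06 FPKM, and was unlisted in dKO (adjusted p = 0.874 for dKO versus WT, and 0.0172 without tKO replicate 3). Here too the library left out was picked after the values were seen. It is not part of the comparison and enters it only through the SE of the shared model.

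Hippo pathway genes offered little to compare. Of 44 genes 15 had an exon-end group and 5 had a compared one, 6 groups in all, with no call in any comparison. At an unadjusted p under 0.05 there was 1 group for tKO versus WT, 1 for dKO versus WT and 0 for tKO versus dKO, and 6 groups are too few to set against the 3.66% to 4.13% over all compared groups. Rassf5, which binds the Mst kinases, had its longer exon at 100% in each tKO and dKO library and at 100%, 89.5% and 89.1% in WT (limma, adjusted p = 0.826 for tKO versus WT). Without WT replicate 1, the only WT library at 100% and picked after the values were seen, the limma adjusted p was 6.2e-04. The share did not vary within tKO or within dKO, so that value draws no conclusion here. The shorter exon had only 0.271 and 0.354 FPKM in WT replicates 2 and 3 and was unlisted elsewhere. The mean sum of the group was 2.32 FPKM in tKO, 2.78 in dKO and 2.95 in WT. Mob1b, an activator of the Lats kinases, left out a 15-base acceptor stretch in 100%, 100% and 97.1% in tKO and in 100% in each dKO and WT library. Both groups of Taok2, a kinase upstream of the pathway, stood at 100% in all but 1 library each, at 77.1% in tKO replicate 3 and 91.2% in WT replicate 3.

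The secreted and segment genes of the epididymis had 17 compared groups in 11 genes, with no call. The median absolute differences were 2.68, 1.25 and 1.42 points for tKO versus WT, dKO versus WT and tKO versus dKO. Cst11, a cystatin of the epididymis, had the highest mean sum of the list, 2205 FPKM in tKO, 2372 in dKO and 2572 in WT, and its leading form was at 93.1% or more in all libraries but tKO replicate 1, at 80.5%. Lcn6, a lipocalin secreted by the epididymis, had a mean sum of 589 FPKM in tKO, 511 in dKO and 628 in WT. At an acceptor that differs by 21 bases, the shorter form made up 84.8%, 85.7% and 90.8% in tKO, 85.3%, 85.5% and 86.3% in dKO and 83.9%, 83.2% and 83.1% in WT. The tKO and dKO libraries all lay above WT, by 3.69 points (SE 1.52) for tKO versus WT (limma, adjusted p = 0.826) and 2.27 points for dKO versus WT (adjusted p = 0.874). A later exon of Lcn6 used 4 acceptors, with the shortest exon of 26 bases at 40.8%, 41.9% and 48.1% in tKO, 43.7%, 41.7% and 47.1% in dKO and 52.3%, 49.6% and 44.2% in WT, and these libraries overlapped.

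Of the 14 genes of the ERK response, Etv4 alone had exon-end groups. Etv4, an ETS factor that ERK signalling induces, kept its 18-base acceptor stretch in 99.0%, 67.6% and 94.8% in tKO, 92.6%, 72.2% and 99.9% in dKO and 71.2%, 56.4% and 84.1% in WT. The libraries overlapped in each comparison (limma, adjusted p = 0.826 for tKO versus WT and 0.874 for dKO versus WT). The level of the exon moved apart from its shares, with a mean sum of 26.8 FPKM in tKO, 8.13 in dKO and 27.7 in WT. Of 10 genes known for exon-end switches 5 had a group and 3 a compared one, with no call. Tcf7l2, the Wnt-responsive factor, kept a 12-base donor stretch in 100%, 99.1% and 99.2% in tKO, 96.3%, 87.6% and 99.3% in dKO and 100%, 77.2% and 82.4% in WT, at a mean sum of 3.39 FPKM in tKO, 1.70 in dKO and 1.89 in WT. Over these lists the counts of calls by limma were 0, where the whole set had 0.105%, 0.0261% and 0.105% called.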

How the data were processed

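Poly(A)-selected RNA of 9 libraries was analysed, 3 per genotype. The deposited values are FPKM per transcript event, per the file headers, with events at 0 unlisted and depth unknown. Among tools, bcl2fastq 2.17.1.14 and DESeq appear in the submitters' processing notes with no role stated. For the aligner, event caller and build, no name is given in the sources used here. Ends were compared with GENCODE release M21 (GRCm38): 85.0% of acceptor ends and 85.9% of donor ends were annotated. Grouping and shares are as described above.

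The plan was to sum rows of 1 file with the same ends. In the files 10202 rows repeated an exon under both event types with the identical FPKM, so 1 value was kept, and the sum became an alternative. limma 3.58.1 in R 4.3.3 fitted the percent share of the leading form in 1 model of the 9 libraries (eBayes, 6 residual and 0.651 prior degrees of freedom), with no replicate block. P-values were adjusted by Benjamini-Hochberg over 3826 groups, and a group was called at an adjusted p under 0.05. The fit was tested on simulated data. Named groups are those called, then the largest differences with separated libraries and a mean sum of at least 5 FPKM, up to 10 per direction without predicted gene models, and up to 4 groups per gene list by smallest p. Dennd2d and Cdk5, below that level, are named as calls outside the rule. Named groups not described one by one are covered by the ranges of their comparison. Members and lists were chosen with earlier results of these data known. Alternatives changed the filter, the scale, the grouping, the rows, the libraries and the fit. The alternatives of leaving out groups with disjoint forms and keeping only annotated forms were added after seeing the data. Other steps used Python 3.11.15 (pandas 2.3.3, SciPy 1.17.1, numpy 2.4.6), and plots matplotlib 3.10.9.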

Additional observations from a re-analysis of the deposited data

How the results depend on the processing

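Values per comparison are given for tKO versus WT, dKO versus WT and tKO versus dKO. The main limma fit called 4, 1 and 4 groups. Leaving out 1 library gave 3 to 18, 1 to 12 and 3 to 18 calls. With a sum of at least 5 FPKM in every library there were 0 calls in tKO versus WT (80 at an unadjusted p under 0.05) and 1 in tKO versus dKO. With both forms listed in all 9 libraries there were 1, 0 and 0 calls (59 and 62 groups at an unadjusted p under 0.05 in dKO versus WT and tKO versus dKO). The log2 ratio of forms gave 3 calls in dKO versus WT at either pseudocount, 8 in tKO versus dKO at 0.1 and 1 in tKO versus WT at 1. Testing every form gave 2 calls in dKO versus WT, and a fit of only the 6 libraries compared gave 5. Without groups that hold disjoint forms there were 2 calls in tKO versus WT, and with annotated forms only there were 1, 2 and 1. Summing repeated rows gave 4, 1 and 4 calls, and robust eBayes, no filter and grouping by a shared end did so too. The cause of these moves was not tested.

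Replicate numbers did not pair the libraries: deviations of same-numbered libraries correlated at -0.037 to 0.064. The replicate block gave 3, 2 and 3 calls. Under it the calls of Fam98c (adjusted p = 0.150) and Dennd2d (0.120) were lost and Nol4l was called in dKO versus WT (2.32e-03).

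Over the 9 called results, 160 of 181 alternative values kept their direction and stayed past the threshold, and 21 fell short of it, none in the other direction. Cdk5 passed in every alternative that could be computed for it (highest adjusted p 6.08e-03 for tKO versus WT and 6.22e-03 for tKO versus dKO). These were 19 settings, against 22 for Enpp1. The share of Cdk5 did not vary within any genotype, so the fits without 1 library could not test this call. Pop4 fell short on the log2 scale with a pseudocount of 1 (adjusted p = 0.222 and 0.0877). Enpp1 fell short on both log2 scales (up to 0.690 for dKO versus WT and 0.761 for tKO versus dKO). Fam98c reached 0.871 and Dennd2d 0.303 and 0.527 in their weakest alternatives. Of 1573 alternative values of the groups that did not pass, 16 passed and 2 changed sign. These were Fn1 in tKO versus dKO, at -0.590 to 34.5 points without 1 library against 22.8, and Add1 in tKO versus WT, at -0.869 to 0.00486 points against -0.575. Without read counts no counting error could be given, and forms under 1 FPKM rest on few reads.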
